A study of Mus musculus with 8 samples.

Results

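S-phase progenitor cells of the small intestinal crypt, that is, cells that copy their DNA before division, were described in 2 single-cell matrices. They were chosen by their measured UMIs (unique molecular identifiers, each standing for 1 captured transcript). A barcode was kept with at least 1500 UMIs, at least 200 genes, at most 30% of UMIs from mitochondrial genes and under 20% from Defa genes, the defensins of Paneth cells. A kept barcode was called an S-phase cell when Mcm3, Mcm5, Mcm6, Mcm7, Lig1, Hells and Dut together had at least 3 UMIs and at least 0.15% of its UMIs. The mitotic genes Top2a, Ube2c, Cdk1, Ccnb1, Cenpf and Birc5 had to be under 0.15%, and the stem cell genes Lgr5, Ascl2, Smoc2 and Gkn3 under 0.03%. This gave 118 cells, 71 in WT and 47 in KO, out of 28750 barcodes (15987 in WT and 12763 in KO), of which 11525 were kept (6847 and 4678).

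Crypt progenitors, or transit-amplifying cells, arise from Lgr5-positive stem cells at the crypt base and divide several times before they become absorptive or secretory cells. On entry into S phase, E2F transcription factors switch on the genes that load the MCM helicase at replication origins, fire these origins, supply nucleotides and rebuild chromatin behind the fork. In G2 and mitosis another set of genes, for the spindle and the chromosomes, is turned on through CHR and CCAAT elements of their promoters. Wnt/β-catenin signaling, with Ctnnb1 coding for β-catenin, keeps crypt cells cycling.

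Crypts came from the small intestine of adult female mice, and EpCAM-positive epithelial cells were sorted by flow cytometry before 3-prime droplet libraries (10x Genomics) were made. KO mice lacked ieCtnnb1, an intestinal enhancer upstream of Ctnnb1, on both alleles (Ctnnb1 Δi.enh), while the gene itself was left in place. Per the study's methods the mice labelled WT carried a LacZ reporter of this enhancer at the H11 locus (H11 i.enh) and so were not plain wild-type animals. Animals of one genotype had been pooled, and although 4 samples are listed under each label, there was 1 matrix per group and no map from cells to animals. Each group therefore counted as 1 sample, no test between WT and KO was possible, and every interval given is a 95% interval for counting error only.

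Members had the epithelial markers that the sort calls for. Epcam, the surface protein used for it, was at 1674 CPM among WT members and 1377 among KO members (CPM, UMIs scaled to a total of 1e+06), and all members had UMIs of the list of 6 epithelial genes. The list of 10 genes of other cell types, such as Ptprc of leukocytes, had 0 UMIs in WT members and 1 in KO members. Members had a median of 8795 UMIs in WT (1570 to 16852) and 11381 in KO (1635 to 27173), and 619933 and 615008 UMIs in all. Of 57 barcodes found in both matrices 1 was a member, in 1 matrix. The 8% of scored barcodes with the highest Scrublet doublet scores held 0 WT members and 1 KO member, and doublets were left in. A single KO member, which also met the limits for tuft cells, held 64.9% of the 77 UMIs of tuft products in KO members. A single WT member held 42% of the 100 UMIs of enteroendocrine products in WT members.

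Promoters of 3 genes of the replication program and of 1 mitotic gene are shown, because E2F letters were more frequent in windows of the former kind and CHR letters in those of the latter. The windows are those of RefSeq on build GRCm38.p6, each of 300 bases on the strand of the gene, with 250 bases before the start site. Capitals in the first 3 mark the E2F letters TTTCCCGC, TTTGGCGC, TTTCGCGC or TTTGCCGC on either strand. Capitals in Ccnb2, a mitotic cyclin, mark the CHR letters TTTGAA or TTCGAA on either strand. Mcm6 codes for a subunit of the MCM helicase (chr1:128359656-128359955, minus strand). Cdc6 loads that helicase (chr11:98907901-98908200, plus strand), and Clspn protects the fork and signals to the checkpoint (chr4:126556730-126557029, plus strand). Ccnb2 is at chr9:70421505-70421804 on the minus strand.
Mcm6: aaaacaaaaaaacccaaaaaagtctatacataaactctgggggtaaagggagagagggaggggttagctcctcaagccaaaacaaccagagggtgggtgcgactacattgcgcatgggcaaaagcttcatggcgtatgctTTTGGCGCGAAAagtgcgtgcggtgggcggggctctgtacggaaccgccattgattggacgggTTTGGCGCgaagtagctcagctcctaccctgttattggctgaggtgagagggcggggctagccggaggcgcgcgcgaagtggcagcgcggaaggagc
Cdc6: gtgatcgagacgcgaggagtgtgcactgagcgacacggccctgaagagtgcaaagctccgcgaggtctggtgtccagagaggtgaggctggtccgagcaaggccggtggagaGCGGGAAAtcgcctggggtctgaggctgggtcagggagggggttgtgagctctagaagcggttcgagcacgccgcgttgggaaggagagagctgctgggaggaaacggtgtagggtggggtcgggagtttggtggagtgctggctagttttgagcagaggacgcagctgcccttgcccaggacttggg
Clspn: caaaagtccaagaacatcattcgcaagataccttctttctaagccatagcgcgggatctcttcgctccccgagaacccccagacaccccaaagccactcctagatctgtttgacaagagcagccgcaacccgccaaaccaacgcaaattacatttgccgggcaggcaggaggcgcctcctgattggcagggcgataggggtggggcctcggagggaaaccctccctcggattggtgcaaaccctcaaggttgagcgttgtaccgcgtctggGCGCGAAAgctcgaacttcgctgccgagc
Ccnb2: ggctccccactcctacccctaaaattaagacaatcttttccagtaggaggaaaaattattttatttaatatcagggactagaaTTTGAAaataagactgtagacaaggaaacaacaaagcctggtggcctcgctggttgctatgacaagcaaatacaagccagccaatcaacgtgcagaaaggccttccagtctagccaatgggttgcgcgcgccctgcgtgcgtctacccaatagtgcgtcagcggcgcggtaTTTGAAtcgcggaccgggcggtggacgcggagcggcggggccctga

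The Mcm6 window held 3 E2F matches, and the first of them, 110 bases before the start site, overlapped the next on the other strand at 106 bases. The match of Cdc6 began 138 bases before the start site, and that of Clspn lay in the transcribed part. All 3 replication windows shown held a match, but they do not stand for all that were looked at. Of those not shown, the window of Hells held a match. Uhrf1 had a window with a match and another without. The windows of Ung, Rrm2, Pcna, E2f1 and Fam111a, also looked at and not shown, held no E2F match. A window was found for 57 of the 76 replication genes that the rule did not use, and 17 of them (29.8%) held an E2F match. Among the 7 rule genes 6 held one (85.7%). Of 27025 genes with a window 704 held one (2.6%), and of the mitotic genes outside the rule 0 of 28 did. The CHR letters stood in 23 of these 28 mitotic genes (82.1%), in 12 of the 57 replication genes (21.1%) and in 21.7% of all genes. CCAAT, searched on both strands as well, stood in 78.6% of the mitotic genes, 59.6% of the replication genes and 41.1% of all. These are matches of letters, and binding was not measured.

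By the rule itself, a member had a median of 0.170% of its UMIs in the 7 S-phase genes in WT (highest 0.295%) and 0.164% in KO (highest 0.253%), on a median of 15 and 20 UMIs. Only 6 WT and 5 KO members rested on 3 to 5 such UMIs. Many cells lay near the limit, with 25 WT and 19 KO members just inside it, at 0.15% to 0.16%, and 25 WT and 24 KO barcodes just outside it, at 0.14% to 0.15%. Of 130 WT and 72 KO barcodes past the S-phase limit, 25 and 8 were at or over the mitotic limit and 40 and 19 at or over the stem cell limit, 6 and 2 of them over both. Mcm6 was at 264 CPM among WT members and 258 among KO members, and Lig1, which joins Okazaki fragments, at 261 CPM among WT members and 293 among KO members. Dut, which keeps uracil out of DNA, was at 244 CPM among WT members and 368 among KO members, and Hells, a chromatin remodeler, at 297 CPM among WT members and 182 among KO members. These genes chose the cells, so their levels are a description.

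The first comparison asked whether a smaller share of kept barcodes met the rule for S-phase cells in KO. This share is not the fraction of crypt cells in S phase, since the rule leaves out barcodes over the mitotic or stem cell limits. S-phase cells were 1.04% of kept barcodes in WT (0.811% to 1.31%) and 1.005% in KO (0.739% to 1.33%). The log2 of KO over WT was −0.05 (−0.61 to 0.51). With a limit of 0.10% in place of 0.15% for the S-phase genes, a limit chosen after seeing the data, 258 WT and 234 KO barcodes met the rule and the value was 0.41 (0.15 to 0.67). The comparison thus depended on the limit, and no difference was detectable with the 118 members. Mitotic cells, set by the 6 mitotic genes at 0.15% or more with stem cell genes under 0.03%, were at 23.2% and 13.9%, with a log2 KO/WT of −0.74 (−0.88 to −0.61). Stem cells, set by the 4 stem cell genes at 0.03% or more with mitotic genes under 0.15%, were at 4.42% and 8.14%. S-phase cells thus made up 4.28% of S-phase and mitotic cells together in WT (3.36% to 5.37%) while in KO they made up 6.75% (5.0% to 8.88%). This was a log2 KO/WT of 0.66 (0.09 to 1.21). The interval reached 0 with mitotic genes under 0.05%, where the value was 0.76 (−0.12 to 1.61), with a mitochondrial limit of 15%, where it was 0.59 (0.00 to 1.16), and with at least 5000 UMIs, where it was 0.56 (−0.06 to 1.17).

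Depth differed between the matrices, with a median of 6584 UMIs per kept barcode in WT and 12559 in KO. With every kept barcode thinned to 1500 UMIs, 143 WT and 116 KO barcodes met the rule (2.09% and 2.48%), a log2 KO/WT of 0.25 (−0.12 to 0.61). Only 31 WT and 18 KO barcodes were members both ways. Thinned mitotic cells were at 19.2% and 11.4%, and S-phase cells among both classes at 9.79% and 17.9%, a log2 KO/WT of 0.87 (0.50 to 1.23). The lower share of mitotic cells in KO and the higher share of S-phase cells among both classes were seen with all UMIs and after thinning. The interval for the share among all kept barcodes held 0 both times. Depth and the working of the limits changed together, so the part of depth alone was not tested.

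**Figure D1:**
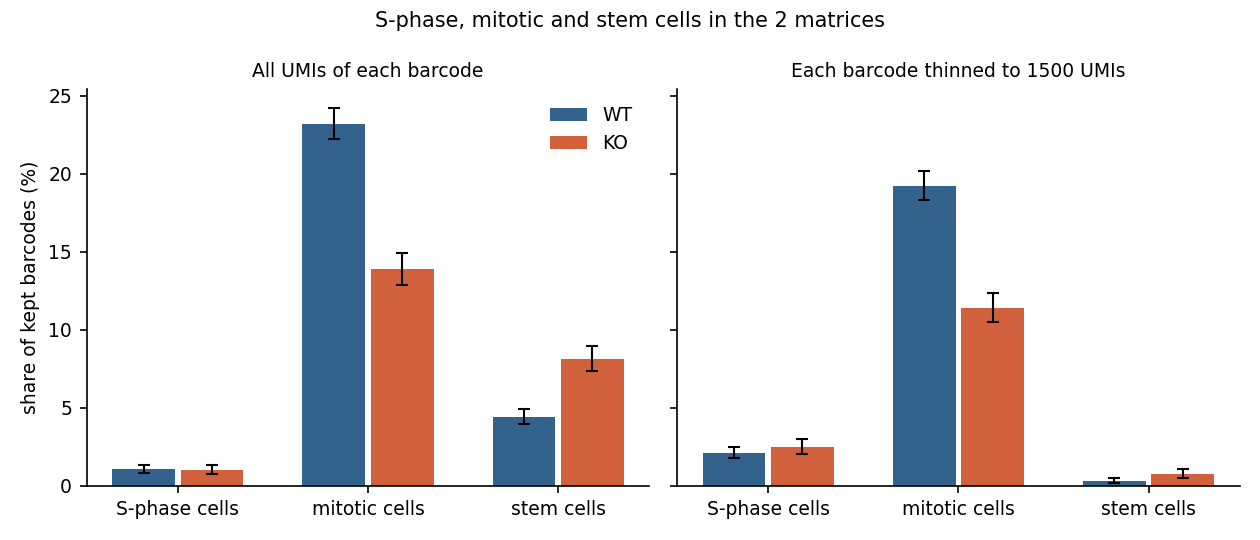
Share of kept barcodes (%, y axis) called S-phase, mitotic or stem cells in WT and KO, with all UMIs and after thinning to 1500 UMIs. Each value is the share of 1 pooled matrix with its exact Clopper-Pearson 95% interval. S-phase cells stood at 1.04% in WT and 1.005% in KO, and mitotic cells at 23.2% and 13.9%, with all UMIs.

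Replication genes that the rule did not use stood high in the members. The 76 genes of this list took a median of 0.670% of the UMIs of a WT member (0.347% to 0.951%) and 0.604% of a KO member (0.235% to 0.803%). Mitotic cells had medians of 0.293% and 0.295%, and stem cells of 0.350% and 0.305%. Tuft cells, a class set by tuft products alone, had medians of 0.143% and 0.135% at median depths of 4237 and 6494 UMIs. Of the 83 WT tuft cells 9 were over the mitotic limit, as were 3 of the 46 KO tuft cells, and 1 KO tuft cell was over the S-phase limit. Without these cells, left out after seeing the data, the medians were 0.134% in WT and 0.129% in KO. The ranges overlapped, since single mitotic cells reached 0.968% and 0.977%.

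The level of this list was higher with each bin of the rule genes. In barcodes under the mitotic and stem cell limits, the 76 genes summed to 851 CPM in WT and 901 in KO in the lowest bin of rule gene share. They were at 3497 and 3494 CPM in the third bin, at 5620 and 5731 in the last bin below the limit, and at 6677 (6475 to 6883) and 6187 (5992 to 6387) in the members. Genes that act at the G1/S border had the same order, but all of them except E2f1 are also among the 76 genes. Cdc6, Cdt1, Ccne1, Ccne2, E2f1 and Ung together were at 15.7 and 16.4 CPM in the lowest bin and at 290 and 275 in the members. Both measures are shares of the same UMIs, and the members are therefore one end of a range and not a separate group.

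**Figure D2:**
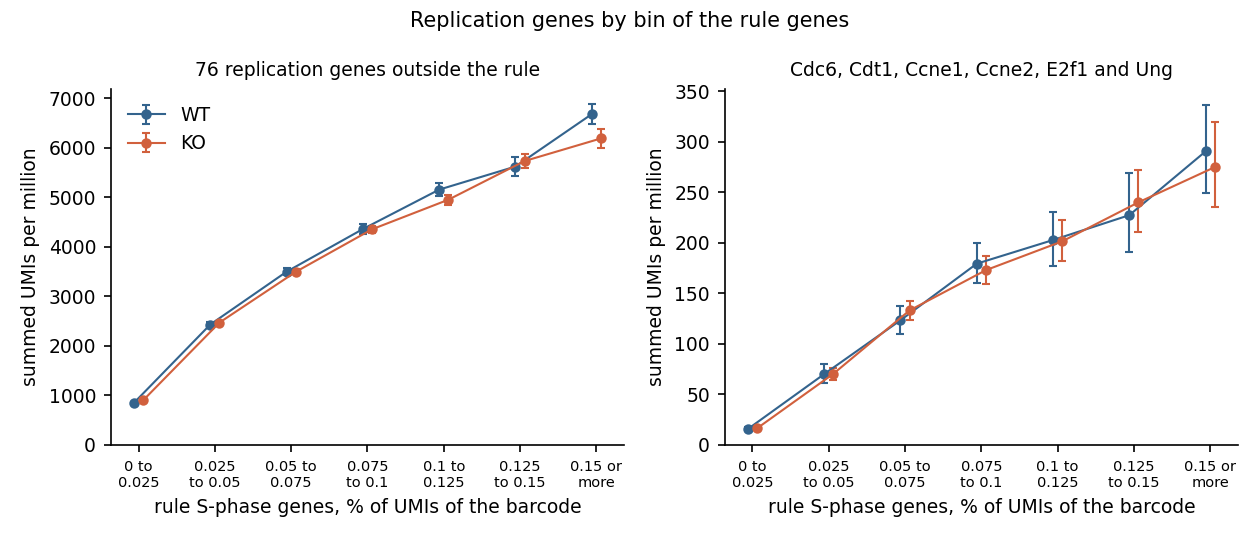
Summed level of the 76 replication genes outside the rule and of 6 G1/S genes, in CPM, in bins of the share of UMIs in the 7 rule genes (x axis, %). All of the G1/S genes except E2f1 are also among the 76. Points are 1 pooled matrix each with exact Poisson 95% intervals, and the last bin holds the S-phase cells. The replication genes stood at 851 in the lowest and 6677 in the last bin in WT, and at 901 and 6187 in KO.

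Set against mitotic cells, the list differed by role. The comparison used genes with a mean of at least 20 CPM over both classes and both matrices, 5305 genes in WT and 5304 in KO. Of these, 2.0% in WT and 2.75% in KO were at least 2-fold higher in S-phase cells, and 3.54% and 4.28% at least 2-fold lower. Of the 76 replication genes 63 passed, and their median log2 of S-phase over mitotic cells was 1.16 in WT and 1.22 in KO, beside −0.01 and −0.03 over all genes. In WT 38 of the 63 were at least 2-fold higher and 0 lower, and in KO 39 were higher and 1 lower. Both classes had been chosen on cell cycle genes, so these values describe the classes and test nothing.

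Origin licensing stood highest, with medians of 2.33 in WT and 2.30 in KO over 6 of 7 genes. Mcm4, a helicase subunit, was at 137 against 23.6 CPM in S-phase against mitotic cells of WT (log2 and its interval 2.54, 2.18 to 2.89) and at 89.4 against 20.6 in KO (2.12, 1.67 to 2.55). Cdt1, which loads the helicase, stood at 83.9 against 12.7 CPM in WT and 99.2 against 13.9 in KO. Gmnn, the inhibitor of Cdt1 that accumulates after origins have fired, was 0.70 and 0.54 log2 units above mitotic cells. Cdc6, singled out after its values were seen because it had under 100 UMIs, was at 40.3 against 5.32 CPM in WT (2.92, 2.21 to 3.59) and 34.1 against 4.59 in KO (2.90, 2.1 to 3.64).

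Genes of origin firing and fork protection had medians of 1.37 in WT and 1.34 in KO over 9 of 16 genes. The E-type cyclins, which drive entry into S phase, stood far above mitotic cells. Ccne1 was at 38.7 against 7.0 CPM in WT and 42.3 against 5.82 in KO, and Ccne2 at 29.0 against 3.43 and 24.4 against 3.36. Both are named after their values were seen, since they had under 100 UMIs. Clspn was at 153 against 42.7 CPM in WT (1.84, 1.52 to 2.16) and 68.3 against 21.9 in KO (1.64, 1.14 to 2.12). Dbf4, the activator of the Cdc7 kinase, also with under 100 UMIs, went the other way, with log2 values below 0 in WT (−0.92, −1.53 to −0.37) and in KO (−1.0, −1.72 to −0.37).

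At the fork itself the differences were smaller. Polymerases and primase had medians of 1.06 in WT and 1.20 in KO, and the sliding clamp and lagging strand of 1.04 in WT and 0.94 in KO. Pcna, the clamp, was at 202 against 46.1 CPM in WT (2.13, 1.84 to 2.41) and 125.2 against 36.9 in KO (1.76, 1.40 to 2.11), while Pold2, a polymerase delta subunit, was at 0.14 and 0.26 on the log2 scale. Nucleotide supply had the lowest medians, 0.61 in WT and 0.79 in KO. Rrm2, the subunit of ribonucleotide reductase made in S phase, was at 1.14 and 1.16, but Tk1, thymidine kinase, was at 0.32 and 0.14 with both intervals holding 0.

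Chromatin genes had medians of 1.29 in WT and 1.38 in KO, and all 11 passed the filter. Uhrf1, which carries DNA methylation to the new strand with Dnmt1, was at 168 against 37.5 CPM in WT (2.16, 1.84 to 2.47) and 91.1 against 19.1 in KO (2.25, 1.81 to 2.68). Slbp, which binds histone mRNA, was at 184 against 63.1 and 247 against 76.7 CPM. Checkpoint and repair genes had medians of 1.62 in WT and 1.41 in KO. Ung, which removes uracil from DNA, was the steepest gene of the tested replication genes in WT, at 66.1 against 6.51 CPM (3.34, 2.78 to 3.89), and was at 29.3 against 5.74 in KO (2.35, 1.52 to 3.11). E2f1, a regulator outside the 76 genes, was at 32.3 against 5.39 and 45.5 against 5.82 CPM. Ung and E2f1 had under 100 UMIs and are named after their values were seen.

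Ranked by the smallest of the 4 log2 values against mitotic and stem cells in WT and KO, the first 10 genes outside the rule were Uhrf1, Fam111a, Clspn, Tcf19, Chaf1a, Rrm2, Slbp, Slfn9, Pcna and Rfc4, and 7 of them were on the replication list. Fam111a, a protease linked to replication, was at 92.0 CPM in WT S-phase cells beside 30.1 in mitotic and 34.2 in stem cells, and at 58.5 beside 18.2 and 19.1 in KO. Tcf19 was at 41.9 beside 9.59 and 14.2 CPM in WT, and at 69.9 beside 8.93 and 14.1 in KO. Slfn9, of the Schlafen family, was at 131 beside 28.2 and 60.5 CPM in WT, and at 50.4 beside 9.34 and 22.2 in KO. Slfn9 and Tcf19 thus stood lowest in mitotic cells, with stem cells between, while for Fam111a mitotic and stem cells were close.

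Stem cells were closer to the members. There 65 of the 76 genes passed the filter, with medians of 0.81 in WT and 0.83 in KO beside 0.14 and 0.13 over all 5150 genes. At least 2-fold higher in S-phase cells were 25 of them in WT and 20 in KO, where 1.96% and 2.35% of all genes were. At least 2-fold lower were 0 in WT and 0 in KO, where 2.06% and 2.5% of all genes were. Rrm2 was 1.42 and 1.93 log2 units above stem cells, and Uhrf1 1.60 and 1.44. Mitotic genes outside the rule had medians of −1.65 in WT and −1.73 in KO against mitotic cells over 33 of 34 genes, and of 0.03 in WT and −0.14 in KO against stem cells over 24. In sum they were at 1800 CPM in WT and 1198 in KO members, beside 1824 CPM in WT and 1160 in KO tuft cells and 5298 CPM in WT and 3487 in KO mitotic cells. Tuft cells under the S-phase and mitotic limits, a subset taken after seeing the data, were at 1065 CPM in WT and 857 in KO, below the members.

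**Figure D3:**
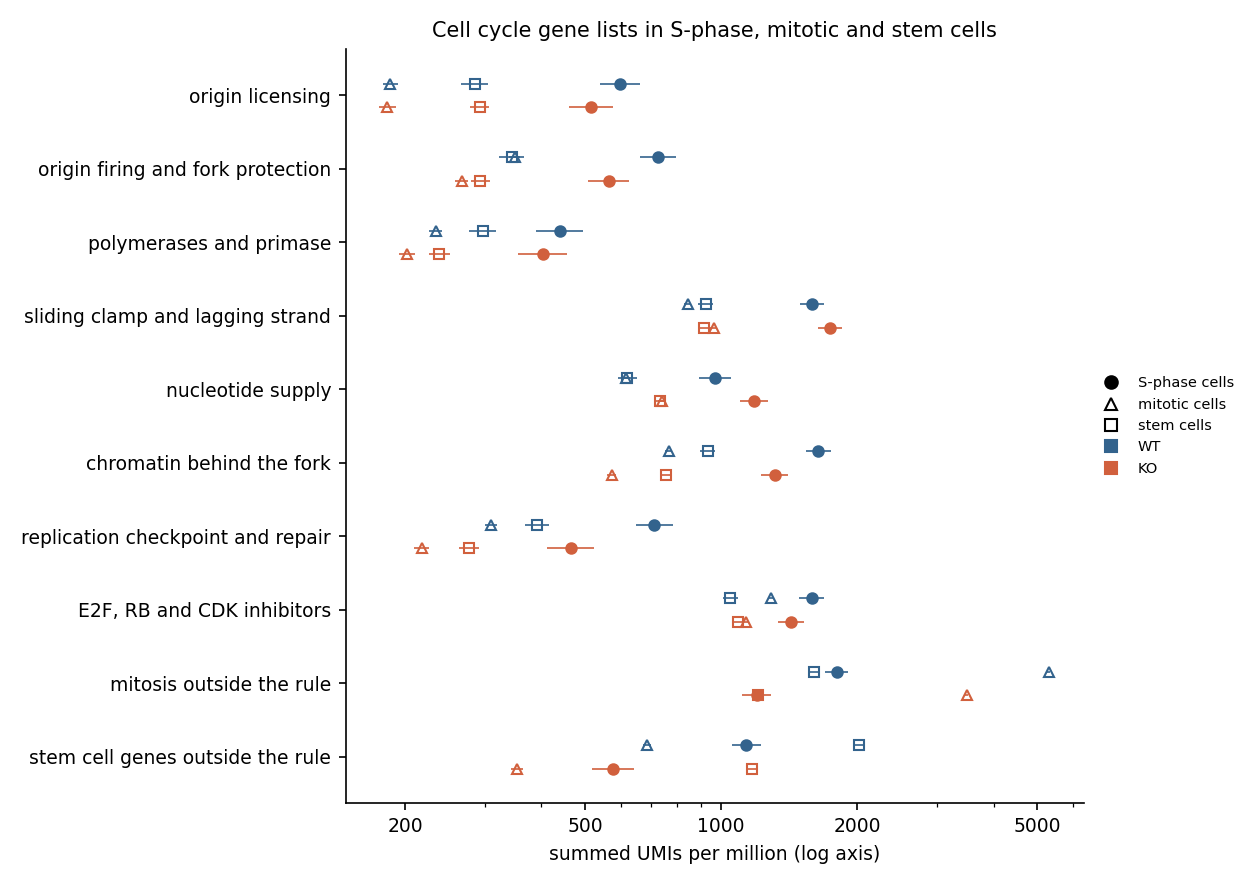
Summed CPM (log axis) of gene lists in S-phase, mitotic and stem cells of WT and KO, with exact Poisson 95% intervals. The replication lists lay highest in S-phase cells in both matrices, for example origin licensing at 598 CPM in WT and 515 in KO S-phase cells beside 186 CPM in WT and 183 in KO mitotic cells.

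Products of mature cells were mostly lower in S-phase than in mitotic cells. Goblet products had medians of −1.45 in WT and −2.61 in KO over 7 genes, and enterocyte products of −0.70 in WT and −1.32 in KO over 14 genes. Goblet products took a median of 0.296% of the UMIs of a WT member and 0.209% of a KO member. Mitotic cells had similar medians, 0.328% and 0.195%, but upper quartiles of 2.77% and 2.19%, where members had 0.401% and 0.387%. The upper quartiles thus lay further apart than the medians. Paneth products had medians of −0.11 in WT and 0.05 in KO, and nucleolar and growth genes of 0.48 in WT and 0.57 in KO over 13 of 14 genes. Nolc1, a nucleolar phosphoprotein, was at 0.91 and 0.75.

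The next comparison asked whether replication genes differed between WT and KO within S-phase cells. The 1669 genes with at least 100 UMIs over all members had a median log2 KO/WT of 0.09, with 0.659% at least 2-fold higher in KO and 5.45% at least 2-fold lower. Of the 76 replication genes 32 had that many UMIs. Their median was −0.02, with 16 below and 16 above 0, and the interval lay below 0 for 8 and above 0 for 6 of them. Over all genes tested 43.3% were below and 56.7% above 0, and the interval lay below 0 for 21.3% and above 0 for 24.5%. At least 2-fold lower were 2, Atad2 and Clspn, and at least 2-fold higher was 1, Rnaseh2a. The sum of all 76 genes stood at 6677 CPM in WT and 6187 in KO, a log2 KO/WT of −0.11 (−0.17 to −0.05). The list as a whole lay near the background of all genes, and its members spread to both sides.

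Nucleotide supply was on the higher side in KO, at 971 CPM in WT and 1182 in KO, with a log2 KO/WT of 0.28 (0.13 to 0.44) and 6 of 7 genes above 0, where 56.7% of all genes were. Tyms, which makes thymidylate, had 76 and 133 UMIs, or 123 CPM among WT members (96.6 to 153) and 216 among KO members (181 to 256). Its log2 KO/WT was 0.82 (0.40 to 1.25), and the intervals of its levels did not overlap. Dtymk, the next kinase on the way to dTTP, was at 161 CPM among WT members and 232 among KO members, or 0.53 (0.15 to 0.91). Rrm1 and Rrm2, the subunits of ribonucleotide reductase, were at −0.15 (−0.63 to 0.32) and 0.23 (−0.35 to 0.81), so neither was told apart from 0. The sum of this list was at 0.27 in mitotic cells and 0.24 in stem cells.

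Chromatin genes were on the lower side, at 1640 CPM in WT and 1314 in KO, with a log2 KO/WT of −0.32 (−0.46 to −0.19). Atad2, a bromodomain ATPase on chromatin, was at 194 CPM among WT members (160 to 232) and 71.5 among KO members (52.0 to 96.0), a log2 KO/WT of −1.44 (−1.97 to −0.93). Uhrf1 was at 168 CPM among WT members and 91.1 among KO members, or −0.88 (−1.38 to −0.40), and Dnmt1, the maintenance methyltransferase, at 134 CPM among WT members and 74.8 among KO members, or −0.84 (−1.39 to −0.30). Slbp and Hat1, which acetylates new histone H4, went against them, at 0.43 (0.07 to 0.79) and 0.59 (0.01 to 1.18). In mitotic cells Atad2 was at −1.23, Uhrf1 at −0.97 and Dnmt1 at −1.09, close to their values in S-phase cells.

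At origins and forks, Clspn was at −1.17 (−1.73 to −0.63), Mcm4 at −0.62 (−1.13 to −0.11) and Pcna at −0.69 (−1.12 to −0.27). Mcm2, Orc6, Gmnn and Cdt1 had intervals that held 0. Rnaseh2a, a subunit of the enzyme that removes RNA from DNA, was at 51.6 CPM among WT members (35.3 to 72.9) and 114 among KO members (88.7 to 144), a log2 KO/WT of 1.14 (0.52 to 1.79). Pclaf, a partner of the clamp, was at 405 CPM among WT members and 494 among KO members, or 0.29 (0.04 to 0.53). Checkpoint and repair genes, of which only Usp1 had 100 UMIs, summed to 711 CPM in WT and 465 in KO, or −0.61 (−0.83 to −0.40).

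The values went with transcript length. Over the 417 tested genes with the shortest exons (median 1218 bases) the median log2 KO/WT was 0.26, and over the 419 with the longest (median 7667 bases) it was −0.38. Among the 32 replication genes it was 0.13 for the 16 shorter and −0.15 for the 16 longer ones. The part of length in the values of single genes was not tested.

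**Figure D4:**
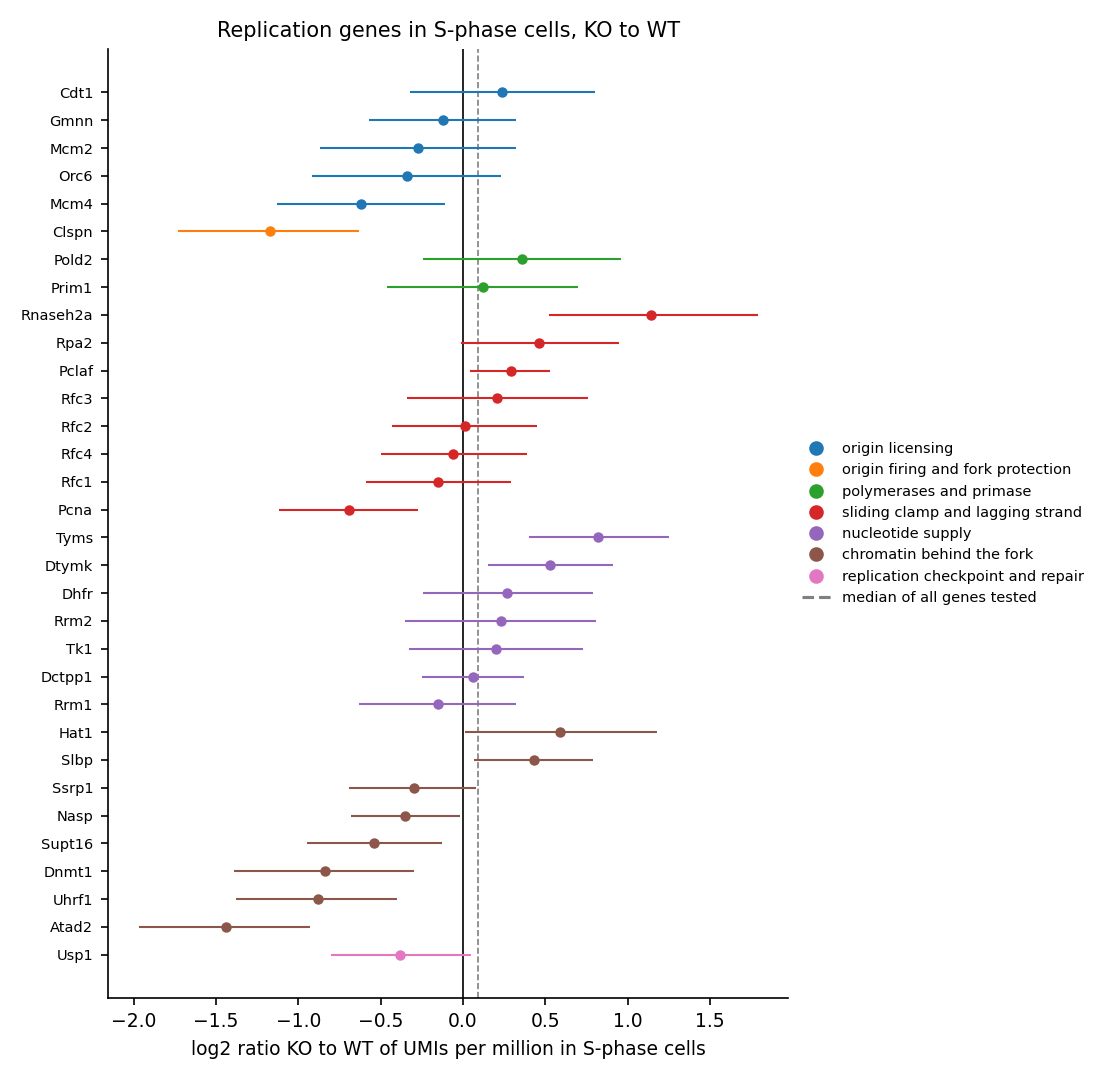
Log2 KO/WT in S-phase cells (x axis) for the 32 replication genes with at least 100 UMIs, grouped by role. Points compare 2 pooled matrices and lines are exact conditional binomial 95% intervals for counting error. Atad2 at −1.44 and Clspn at −1.17 lay lowest, and Rnaseh2a at 1.14 highest.

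The members were next compared for Ctnnb1, the gene whose enhancer was deleted. Ctnnb1 had 133 UMIs in WT and 95 in KO, or 214 CPM among WT members and 154 among KO members. The log2 KO/WT was −0.47 (−0.87 to −0.08), beside −0.76 in mitotic, −0.57 in stem and −0.67 in tuft cells. Within WT it stood at nearly the same level in S-phase and mitotic cells (log2 0.00). None of the 14 Wnt targets had 100 UMIs over the members, so they were summed, at 300 CPM in WT and 166 in KO, a log2 KO/WT of −0.86 (−1.22 to −0.50). The same sum was at −0.70 in mitotic, −0.46 in stem and −0.61 in tuft cells. Genes with fewer UMIs had a lower background, with a median of −0.21 over all genes at 20 UMIs or more in the members. Named after their values were seen, Axin2, a feedback inhibitor of the pathway, had 31 and 10 UMIs, Ephb2, a receptor that positions crypt cells, 50 and 16, and Rnf43, which removes Wnt receptors, 24 and 4, while Sox9 had 35 and 27.

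Stem cell genes outside the rule were lower in KO members, at 1137 CPM in WT and 577 in KO, a log2 KO/WT of −0.98 (−1.17 to −0.79). Olfm4, a secreted glycoprotein of crypt base stem cells, was at 210 CPM among WT members and 53.7 among KO members, or −1.97 (−2.56 to −1.41), and Slc12a2, an ion cotransporter, at 486 CPM among WT members and 198 among KO members, or −1.29 (−1.61 to −0.98). Sox4 was at 0.30 (−0.18 to 0.78). The same list was at −0.96 in mitotic, −0.79 in stem and −0.80 in tuft cells. Of the genes that admit cells to S phase, Cdk4 was at 224 CPM among WT members and 333 among KO members, or 0.57 (0.25 to 0.89), Ccnd2 at −0.37 (−0.58 to −0.16) and Ccnd1 at −0.14 (−0.44 to 0.17). Mki67, a marker of cycling cells, was at 310 CPM among WT members and 133 among KO members, or −1.22 (−1.61 to −0.84). It was the lowest of the 4 tested mitotic genes outside the rule, of which 3 were lower and 1 higher in KO. Their median was −0.39, and Cks2 was highest at 0.22 (−0.31 to 0.76). The whole list summed to −0.59 (−0.72 to −0.45). The 6 mitotic genes of the rule, which were limited in members, summed to 0.02 (−0.19 to 0.22). The 3 tested among them ranged from −0.53 to 0.73, the latter for Birc5.

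Secretory products were lower and several absorptive products higher in KO members. All 6 goblet genes with 100 UMIs were below 0, with a median of −1.76. Over all genes tested 43.3% were below 0, with a median of 0.09. Tff3, a trefoil peptide of mucus, was at 2032 CPM among WT members and 621 among KO members, or −1.71 (−1.88 to −1.54), and Muc2, the main mucin, at 558 CPM among WT members and 138 among KO members, or −2.01 (−2.37 to −1.67). The goblet sum was at −1.51 in members, −0.22 in mitotic, −0.78 in stem and −1.38 in tuft cells. A few members held much of the goblet sum. In 1 WT member stood 18.7% of the goblet UMIs of its group, and in 1 KO member 10.8%. Without the 9 WT and 3 KO members rich in goblet, enteroendocrine or tuft products, left out after seeing the data, the goblet sum was at −0.56 (−0.65 to −0.46), Tff3 at −0.45 (−0.66 to −0.24) and Muc2 at −1.25 (−1.66 to −0.85). These members were picked by products of the same lists. All 9 Paneth products were below 0, with a median of −0.70, beside the same 43.3% and 0.09 over all genes tested. They summed to 29240 CPM in WT and 18320 in KO members and to 39860 CPM in WT and 24290 in KO tuft cells, and the part of free RNA in these values was not tested. Reads of near-identical Defa genes may have been shared between them, so single Defa genes are uncertain.

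Of 14 enterocyte products 7 had 100 UMIs, with a median of 0.79 and 5 intervals above 0, beside 24.5% of the intervals of all genes. The sum of the list was at 0.80 in members, 1.34 in mitotic, 0.89 in stem and 1.66 in tuft cells. It was thus higher in KO in all these classes, and the part of free RNA was not tested. Apoa1, an apolipoprotein, was at 54.8 CPM among WT members and 192 among KO members, or 1.81 (1.25 to 2.40). Reg3b and Reg3g, antibacterial lectins, were at 1.34 and 0.79, Fabp6, which binds bile acids, at 0.94, and Fabp1 at −0.52 (−1.01 to −0.04). In 1 KO member stood 33% of the Reg3b UMIs of its group. Cytosolic ribosomal proteins had a median of 0.29, with 65 of 80 genes above 0, beside a median of 0.09 and 56.7% above 0 over all genes. Their median was much the same in the other classes, at 0.27 in mitotic, 0.27 in stem and 0.29 in tuft cells.

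**Figure D5:**
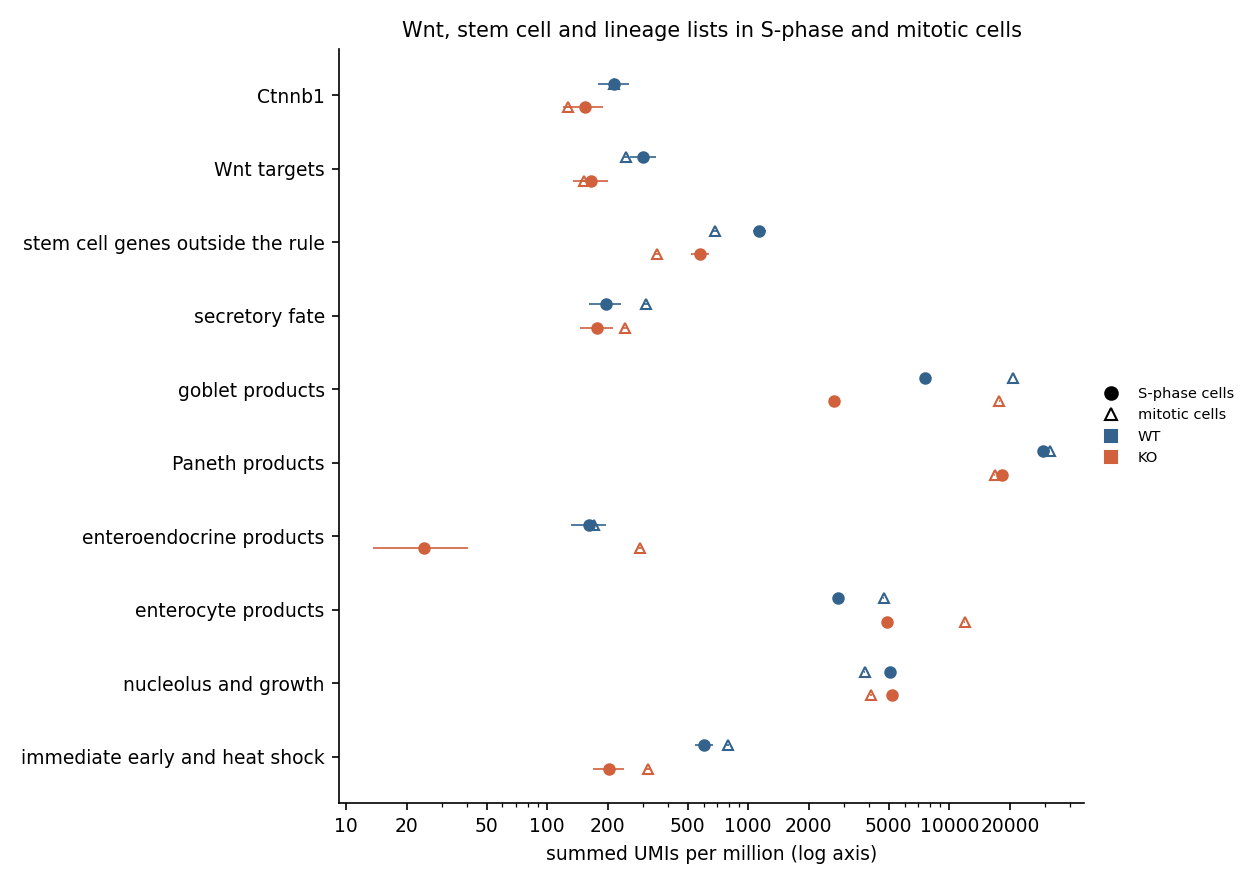
Summed CPM (log axis) of Ctnnb1 and gene lists in S-phase and mitotic cells of WT and KO, with exact Poisson 95% intervals. Goblet products stood at 7606 CPM in WT and 2672 in KO S-phase cells, beside 20720 CPM in WT and 17750 in KO mitotic cells, and Ctnnb1 at 214 CPM in WT and 154 in KO S-phase cells.

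The largest log2 KO/WT values among genes at 50 CPM or more included those of Apoa1, Ifi30, Trmt112, Commd4, Reg3b, Taf6l, Rpl10-ps3, Syce2 and Alyref, from 1.81 down to 1.23. Ifi30, a lysosomal thiol reductase, was at 113 CPM among WT members and 325 among KO members, or 1.53 (1.13 to 1.94), with UMIs in 39 and 40 members. Rpl10-ps3 is a pseudogene and its reads may come from its parent gene. The smallest values were those of AY036118 (−5.06), Chgb (−5.03), Gm42418, Hist2h2ac, Hist1h1b, Ranbp2, Lars2, Hist1h1e, Jun and Muc2 (−2.01). AY036118 and Gm42418 overlap on chromosome 17, on opposite strands. Gm42418 was at −3.23 in members, −3.69 in mitotic, −3.44 in stem and −3.28 in tuft cells. Lars2 was at −2.34, −2.93, −2.88 and −2.88 in the same order. Gm42418 and Lars2 were thus lower in KO in all these classes and not in the members alone. Of the 66 WT UMIs of Chgb, a granin of enteroendocrine cells, 48.5% came from 1 member. In mitotic cells AY036118 was at −5.05 and Jun, an immediate early gene, at −1.96, but Chgb was at 0.54 and Muc2 at −0.96.

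Histone genes with the older symbols Hist1 to Hist4 were counted because 3 of the 10 smallest values were theirs, a list chosen after its values were seen. Of 69 such genes 5 had 100 UMIs over the members, 4 of them lower in KO and 3 at least 2-fold lower. Over all genes tested 43.3% were lower in KO and 5.45% at least 2-fold lower. Hist1h1b, a linker histone, was at 244 CPM among WT members and 34.1 among KO members, or −2.83 (−3.57 to −2.17), and Hist1h2ae, an H2A gene, at 218 CPM among WT members and 60.2 among KO members, or −1.86 (−2.42 to −1.32). Hist1h2bc, an H2B gene, was at 88.7 CPM among WT members and 89.4 among KO members, or 0.01 (−0.55 to 0.58). Together the 69 genes were at 1815 CPM in WT and 623 in KO members, a log2 KO/WT of −1.54, at 3101 CPM in WT and 933 in KO mitotic cells and at 1645 CPM in WT and 730 in KO tuft cells. WT members thus had less than WT mitotic cells and about as much as all WT tuft cells together. Tuft cells under the S-phase and mitotic limits, a subset taken after seeing the data, were at 1097 CPM in WT and 705 in KO. WT members stood above this level and KO members did not. Most histone mRNAs of S phase lack a poly(A) tail, and the libraries capture poly(A) RNA.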

How the data were processed

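EpCAM-positive small intestinal crypt cells were sequenced on the 10x Genomics platform (single cell 3' v2). The deposited matrices hold raw UMI counts per gene and barcode, made by the authors. Per the file headers they were made with Cell Ranger 4.0.0, while the submitters' processing notes name Cell Ranger 2.1.1 and mm10, and this difference was not resolved. The annotation is not given in the sources used here. The other text files hold gene names and barcodes.

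The members and gene lists were chosen with earlier results of these data known. UMIs were summed over the cells of a class and divided by their total (CPM). Levels have exact Poisson, shares exact Clopper-Pearson and ratios exact conditional binomial intervals at 95%, for counting error only. Genes needed 100 UMIs over the members of both matrices for KO against WT, and a mean of 20 CPM for one class against another. A class of tuft cells needed 5 UMIs and 0.2% of UMIs in tuft products. Pclaf was found under an older symbol. Named were list genes at 100 UMIs, the 10 largest and 10 smallest ratios at 50 CPM or more, and the 10 genes highest in S-phase cells against mitotic and stem cells (10 CPM added), without mitochondrial genes. One gene that this rule names is not reported here. Exon lengths came from GENCODE M21 (27722 of 27998 gene IDs matched). Barcodes were scored for doublets with Scrublet (scanpy 1.11.5), and no barcode was removed for it in the main values. The ratio and its interval were tested on simulated data with known folds. Scripts ran in Python 3.11.15 with numpy 2.4.6, scipy 1.17.1 and pandas 2.3.3. Alternatives were other limits of the rule, depth, doublets, summing, denominator, centring and gene filters.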

Additional observations from a re-analysis of the deposited data

Results flagged for a closer look

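Zg16, a goblet cell product, had ratios of KO to WT of opposite sign in S-phase and mitotic cells, with log2 values of −1.95 in S-phase and 0.71 in mitotic cells, and both counting intervals left out 0. Without the 9 WT and 3 KO members rich in goblet, enteroendocrine or tuft products, left out after seeing the data, the S-phase value was −0.65 (−0.93 to −0.37). The difference between the classes was not tested, since each class of each group is 1 pooled sample.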

How the results depend on the processing

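With classes set after all barcodes were thinned to 1500 UMIs, 30 genes were at least 2-fold higher and 305 lower in KO members (11 and 91 in the main values). The median log2 of replication genes against mitotic cells was then 0.73 in WT (main 1.16) and 0.68 in KO (main 1.22). A limit of 0.25% for the S-phase genes left 3 WT members and 1 KO member. The share of S-phase cells was then at a log2 KO/WT of −1.04, their share among S-phase and mitotic cells turned to −0.29 and Ctnnb1 to 2.84, 1 gene was at least 2-fold lower, the replication medians against mitotic cells were 1.79 in WT and 2.12 in KO, and no replication gene had enough UMIs for KO against WT. The few cells left come from the limit itself. With mitotic genes under 0.05%, 22 genes were lower and the Ctnnb1 interval reached 0, at −0.53 (−1.13 to 0.05). The interval of the S-phase share among S-phase and mitotic cells reached 0 under that limit, with a mitochondrial limit of 15% and with at least 5000 UMIs. With the mean CPM over cells 20 genes were higher. With a minimum of 20 UMIs 153 genes were higher and 885 lower, and with no minimum 1429 and 3074. A limit of 0.10%, chosen after seeing the data, gave 34 and 668 and a log2 KO/WT of the S-phase share of 0.41 (0.15 to 0.67), and the cause of these counts was not tested. Leaving out 9 WT and 3 KO members rich in goblet, enteroendocrine or tuft products, also chosen after seeing the data, left a log2 KO/WT of −0.49 for Ctnnb1 and −0.03 for the median of replication genes, and moved the goblet sum from −1.51 to −0.56. No paired analysis was possible because each group is 1 pooled matrix whose columns carry no replicate number. Depth and the 118 cells limit these values, as only 32 of 76 replication genes had 100 UMIs.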

Other observations

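Immediate early and heat shock genes of the members summed to 600 CPM in WT and 203 in KO, a log2 KO/WT of −1.56 (−1.87 to −1.27), and the same list was at −1.32 in mitotic, −1.43 in stem and −1.49 in tuft cells. Genes that mark regions along the small intestine summed to 187 CPM in WT and 97.6 in KO members, or −0.94 (−1.41 to −0.48), beside −0.83 in mitotic cells. Secretory fate genes were at −0.14 (−0.53 to 0.25), with 195 CPM in WT and 177 in KO members. Neurog3, which starts the enteroendocrine fate and was picked after its values were seen, had 0 UMIs in WT and 11 in KO members, the latter all in 1 cell. Atoh1, which sets the secretory fate and was picked in the same way, had 8 and 2. Enteroendocrine products summed to 161 CPM in WT and 24.4 in KO members. Without the 9 WT and 3 KO members rich in other lineage products the log2 KO/WT of this sum was −1.0 (−2.01 to −0.05), from 28 and 15 UMIs. Mitotic cells were at 0.75, where 1 KO cell held 33.7% of the KO UMIs, and at 0.32 without the richest cell of each matrix.

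Genes of Notch signaling and the absorptive fate were at −0.21 (−0.40 to −0.02) in the members, and Hnf4a, a factor of absorptive cells, was at 181 CPM among WT members and 86.2 among KO members, or −1.07 (−1.57 to −0.58). E2F, RB and CDK inhibitor genes summed to 1584 CPM in WT and 1428 in KO, or −0.15 (−0.28 to −0.02). Nucleolar and growth genes had a median log2 KO/WT of 0.00 over 13 genes. The 12 mitochondrially encoded genes tested ranged from −5.05 to 0.68, and the sum of all 13 such genes was at −0.04. At least 2-fold lower were 4 of the 12, where 5.45% of all genes tested were.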
